A study of Mus musculus with 10 samples.

Results

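The Gimap cluster is a run of neighbouring genes on mouse chromosome 6 that encode small GTPases. Its members were taken by name, Gimap1, Gimap3, Gimap4, Gimap5, Gimap6, Gimap7, Gimap8 and Gimap9, and all 8 were found among the 24538 genes of the count files and in the FPKM table. They were measured by RNA sequencing in 10 libraries of sorted lung cells, 5 labelled Lung metastases and 5 labelled Normal lung, all gated as CD31+/CD45-, that is, carrying the endothelial surface protein CD31 and lacking the leukocyte protein CD45. Metastases came from E0771-LG, a mouse mammary tumour line injected into the tail vein of wild type C57BL6/J females aged 6 to 8 weeks. Tumour nodules smaller than 1 mm were cut out and those of 2 to 4 mice were combined in each sample. Normal lungs came from mice of the same strain and genotype, and the age tag of both groups is 8 to 10 weeks. In both groups the tissue was digested for 30 min at 37 °C with alpha-amanitin and actinomycin D, which block transcription, in the buffer. No label says whether the libraries of a group came from separate sorts, so the p-values measure the spread between these libraries.

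GIMAP stands for GTPase of the immunity-associated protein family. These proteins share a GTPase domain related to plant AIG1, several of them sit on membranes of the secretory pathway, lysosomes or mitochondria, and the family is best known for the survival of lymphocytes. Loss of Gimap5 causes lymphopenia in rats and mice, and Gimap5 is also needed in the sinusoidal endothelium of the mouse liver. The comparison asks how transcripts of these genes differ between the CD31+/CD45- cells of metastases and those of normal lung.

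The cluster spans chr6:48647234-48770851 (GRCm38, GENCODE M21), or 124 kb. Along the chromosome the order is Gimap8, Gimap9, Gimap4, Gimap6, Gimap7, Gimap1, Gimap5 and Gimap3, with Gimap6 and Gimap3 on the minus strand and the others on the plus strand. Gimap3 and Gimap5 are close relatives, and 41 windows of 100 exon bases were identical between them, 1.65% of those of Gimap3 and 0.966% of those of Gimap5. Gimap1 is the least certain member, since 28.3% of its exon windows also lie in Gimap1os, a transcript annotated on the opposite strand that has no row in the count files. No source used here says whether reads were counted by strand, and those of Gimap1 and Gimap1os cannot be told apart. An annotated gene of the same strand, Gm28053, spans Gimap7 and Gimap1, ends inside Gimap5 and has no row in the count files either.

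The start regions of the 4 members that fell in metastases are shown because these genes share a locus and moved in the same direction. Each sequence is the RefSeq window (GRCm38.p6) of 250 bases before and 50 bases from the gene start, 5′ to 3′ on the gene's strand. The windows are chr6:48684328-48684627 for Gimap4 (plus strand), chr6:48708195-48708494 for Gimap6 (minus), chr6:48738797-48739096 for Gimap1 (plus) and chr6:48745947-48746246 for Gimap5 (plus). Capitals mark the letters AGGAAG or, on the other strand, CTTCCT, a form of the binding motif of ETS transcription factors. Other forms, with other bases around GGAA, were not searched or marked.
Gimap4: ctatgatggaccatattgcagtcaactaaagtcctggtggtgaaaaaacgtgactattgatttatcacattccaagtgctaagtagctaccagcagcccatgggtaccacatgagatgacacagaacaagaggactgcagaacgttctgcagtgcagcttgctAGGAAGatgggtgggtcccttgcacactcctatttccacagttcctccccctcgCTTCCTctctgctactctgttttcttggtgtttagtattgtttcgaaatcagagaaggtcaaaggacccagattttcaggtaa
Gimap6: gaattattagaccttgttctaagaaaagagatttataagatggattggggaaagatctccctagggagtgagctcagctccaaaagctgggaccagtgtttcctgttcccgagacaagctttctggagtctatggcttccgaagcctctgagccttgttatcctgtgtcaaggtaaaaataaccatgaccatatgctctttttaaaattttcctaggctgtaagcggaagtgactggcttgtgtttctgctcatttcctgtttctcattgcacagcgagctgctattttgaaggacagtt
Gimap1: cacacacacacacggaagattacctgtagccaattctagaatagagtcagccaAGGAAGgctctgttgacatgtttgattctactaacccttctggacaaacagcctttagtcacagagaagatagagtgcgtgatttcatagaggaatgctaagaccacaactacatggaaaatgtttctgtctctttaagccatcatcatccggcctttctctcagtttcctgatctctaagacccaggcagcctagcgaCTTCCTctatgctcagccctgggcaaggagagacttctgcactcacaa
Gimap5: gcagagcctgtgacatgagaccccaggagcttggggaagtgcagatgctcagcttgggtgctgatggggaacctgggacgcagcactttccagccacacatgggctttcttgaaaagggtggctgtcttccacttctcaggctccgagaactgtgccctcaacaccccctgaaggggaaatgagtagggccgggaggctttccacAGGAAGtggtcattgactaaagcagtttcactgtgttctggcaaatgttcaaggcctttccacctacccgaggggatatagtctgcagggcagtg

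The AGGAAG form of the ETS motif stood in both orientations in the Gimap4 window, starting 87 and 33 bases before the gene start. It also stood in both in the Gimap1 window, starting 197 bases before and 2 bases after the gene start. Gimap5 had 1 match, starting 45 bases before the gene start, and Gimap6 had 0 of this form. The Gimap6 window does hold gcggaagtga, which has GGAAG after another base and was not counted. RefSeq gave 9 windows for the 8 members, since Gimap8 has a pair of start sites, and 7 of the 9 held the motif on one strand or the other. Of all 32817 RefSeq promoters of this length, 35.4% held it. The STAT motif TTCNNNGAA was in 4 of the 9 windows (Gimap3, Gimap6, Gimap7 and Gimap8) and in 8.29% of all promoters, and in Gimap8 it overlapped the ETS match. The RUNX motif TGTGGT was in 3 windows (Gimap1, Gimap4 and Gimap7; 16.8% of all promoters), the SOX motif AACAAT in 1 (Gimap4; 10.7%) and the GATA motif AGATAA in 0 (11.2%), all on both strands. The members' windows held 43.3 to 57.3% G and C, against a median of 52.7% over all promoters.

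Counts assigned to genes came to 21.7 to 54.3 M per metastasis library (median 27.0 M) and 41.0 to 79.7 M per normal lung library (median 48.8 M). Reads that HTSeq assigned to no single gene made up 71.8 to 85.4% of all reads in metastases and 65.6 to 75.7% in normal lung, and their part in the results was not tested. Pecam1, the gene of CD31, was at 146 to 1402 CPM in metastases and at 1840 to 3922 CPM in normal lung, where CPM scales counts to a common library size after TMM normalisation. Ptprc, the gene of CD45, was at 84.0 to 154 CPM in metastases and at 8.05 to 26.1 CPM in normal lung. Of all tested genes 8.22% fell in metastases and 12.0% rose. Of 19 pan-endothelial marker genes, 16 fell in metastases and 0 rose. Fibroblast markers summed to 323 to 906 CPM in metastases and 6.08 to 59.1 CPM in normal lung (5 of 5 tested rose), and macrophage and monocyte markers to 917 to 1826 CPM in metastases and 47.2 to 211 CPM in normal lung (4 of 7 rose). Neutrophil markers summed to 13.1 to 54.4 CPM in metastases and 0.188 to 0.702 CPM in normal lung (2 of 2 rose), and platelet markers to 670 to 12114 CPM in metastases and 182 to 885 CPM in normal lung (2 of 5 rose). Epithelial markers summed to 15.3 to 67.8 CPM in metastases and 1.17 to 23.4 CPM in normal lung (1 of 3 tested rose). For pericyte and smooth muscle markers the sums were 2.44 to 66.8 CPM in metastases and 4.75 to 29.4 CPM in normal lung (1 of 3 tested fell). The part of these cell types in the members' changes was not tested. A lower CPM in such bulk samples can stand for fewer cells of a type or for less RNA per cell, and these cannot be told apart. The 8 members together took 0.0102 to 0.0446% of gene counts in metastases and 0.0704 to 0.0935% in normal lung.

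**Figure D1:**
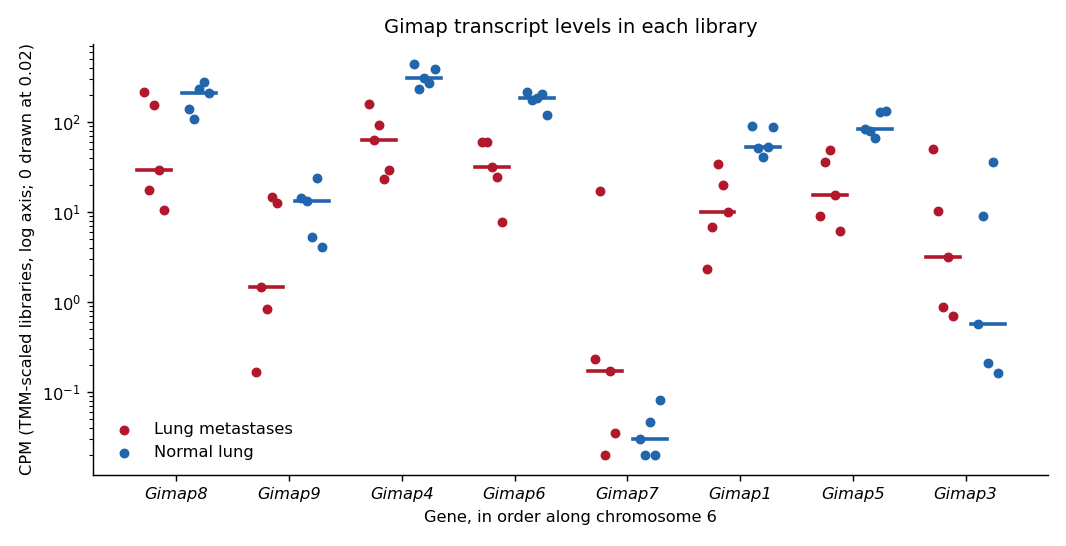
Level of each Gimap gene in each library, in CPM on a log axis, in order along the chromosome, with Lung metastases in red to the left of Normal lung in blue and a bar at each group's median. The groups do not overlap for Gimap4, Gimap6, Gimap1 and Gimap5, and they overlap for Gimap8, Gimap9, Gimap7 and Gimap3.

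Compared per transcript length, Gimap4 and Gimap6 had the highest medians of the cluster in both groups, though in metastases Gimap6 was above Gimap1 in only 2 of 5 libraries. In the authors' FPKM table, which scales fragments by transcript length and depth, the medians in metastases were 27.8 for Gimap4, 22.7 for Gimap6, 13.6 for Gimap1, 6.09 for Gimap8, 5.40 for Gimap5, 2.39 for Gimap3, 0.860 for Gimap9 and 0.167 for Gimap7. In normal lung the median FPKM was 195 for Gimap4, 129 for Gimap6, 83.1 for Gimap1, 44.2 for Gimap8, 32.0 for Gimap5, 9.50 for Gimap9, 0.262 for Gimap3 and 0.0450 for Gimap7. The ranges of neighbours in this order overlapped over the 5 libraries of a group, apart from Gimap5 and Gimap9 in normal lung. Gimap3 and Gimap9 stood in opposite order in the groups, but their ranges overlapped in each.

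Gimap4, Gimap6, Gimap1 and Gimap5 fell in metastases, each to between 0.204 and 0.235 of its normal lung level, and 0 members rose. The count was 4 of the 7 tested members under edgeR's quasi-likelihood test at an adjusted p under 0.05, in a comparison where 8.22% of the 11823 tested genes fell and 12.0% rose. The groups' CPM did not overlap in the same 4 members, all lower in metastases, against 6.17% of tested genes lower and 8.50% higher without overlap. The median log2 fold change of the tested members was -2.09, against 0.06 over all tested genes and -2.37 over the pan-endothelial markers. A direction here is measured against the typical gene. On the log2 scale the all-gene median shifted by 0.25 when libraries were scaled by their totals and by 2.70 when they were scaled to the pan-endothelial markers. With the pan-endothelial scaling 0 members were called and the 4 stood at log2 fold changes between 0.06 and 0.71, below the median of all genes, 2.78, while 0.161% of tested genes were called lower and 60.3% higher. The count of 4 was 2 without metastasis replicate 4 or 5, or without normal lung replicate 4 or 5.

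Gimap4, which in mouse T cells affects the pace of cell death, had the highest FPKM of the cluster in normal lung. It was at 161, 63.8, 92.7, 23.3 and 29.4 CPM in metastasis replicates 1 to 5, and at 447, 234, 306, 272 and 390 CPM in normal lung replicates 1 to 5. The highest metastasis library lay below the lowest normal library. The means were 74.0 ± 56.0 CPM in metastases and 330 ± 87.0 CPM in normal lung (SD, n = 5 each), a log2 fold change of -2.16 ± 0.49 (SE; 95% interval -3.18 to -1.14; edgeR adjusted p = 0.00293). The call held when any 1 library was left out (adjusted p 0.000467 to 0.0102).

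Gimap6 binds GABARAPL2, a protein of autophagy. It was at 60.4, 59.6, 31.6, 24.4 and 7.86 CPM in metastasis replicates 1 to 5 and at 215, 177, 186, 206 and 119 CPM in normal lung replicates 1 to 5. Again the groups did not overlap, and metastasis replicate 5 was the lowest library. The means were 36.8 ± 22.9 CPM in metastases and 181 ± 37.7 CPM in normal lung (SD, n = 5 each), with a log2 fold change of -2.30 ± 0.54 (SE; 95% interval -3.41 to -1.18; edgeR adjusted p = 0.00368). This call also held with any 1 library left out (adjusted p 0.00203 to 0.0117).

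Gimap5, the member tied to lymphopenia, was at 8.97, 36.0, 48.7, 15.4 and 6.10 CPM in metastasis replicates 1 to 5 and at 84.6, 78.8, 65.9, 130 and 131 CPM in normal lung replicates 1 to 5. Its highest metastasis library, replicate 3, lay below its lowest normal library, also replicate 3. The means were 23.1 ± 18.5 CPM in metastases and 98.2 ± 30.5 CPM in normal lung (SD, n = 5 each), a log2 fold change of -2.09 ± 0.65 (SE; 95% interval -3.43 to -0.75; edgeR adjusted p = 0.0241). The call was lost without metastasis replicate 4 (0.0539) or 5 (0.0555), or normal lung replicate 4 (0.0553) or 5 (0.0565), with log2 fold changes of -1.99, -1.87, -2.0 and -1.99.

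Gimap1, which mouse B and T lymphocytes need to persist, was at 2.34, 6.79, 34.1, 19.9 and 10.2 CPM in metastasis replicates 1 to 5 and at 90.9, 51.5, 41.1, 52.4 and 88.9 CPM in normal lung replicates 1 to 5. The groups came close, at 34.1 CPM in metastasis replicate 3 and 41.1 CPM in normal lung replicate 3. The means were 14.7 ± 12.6 CPM in metastases and 65.0 ± 23.2 CPM in normal lung (SD, n = 5 each), a log2 fold change of -2.15 ± 0.75 (SE; 95% interval -3.69 to -0.61; edgeR adjusted p = 0.0432). Its call was kept in 2 of 10 fits with 1 library left out, those without metastasis replicate 3 (0.0107) or normal lung replicate 3 (0.0484). In the other 8 the adjusted p lay between 0.0548 and 0.0919, and it was 0.0646 with RLE scaling and 0.0678 with library totals.

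Gimap8, a large member with several GTPase domains, differed widely between metastasis libraries. It was at 218, 17.7, 154, 29.0 and 10.6 CPM in metastasis replicates 1 to 5 and at 141, 107, 235, 279 and 208 CPM in normal lung replicates 1 to 5. Metastasis replicates 1 and 3 lay inside the normal range and replicates 2, 4 and 5 below it. The log2 fold change was -1.18 ± 0.64 (SE; 95% interval -2.50 to 0.15; edgeR adjusted p = 0.216), and without metastasis replicate 1 it was -1.90 (0.0424).

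Gimap9 was at 0.169, 1.47, 0.844, 14.9 and 12.8 CPM in metastasis replicates 1 to 5 and at 14.3, 13.2, 5.27, 23.8 and 4.11 CPM in normal lung replicates 1 to 5. Here metastasis replicates 4 and 5, the lowest for Gimap4 and Gimap6, were the highest, and the groups overlapped. The log2 fold change was -1.01 ± 1.17 (SE; 95% interval -3.42 to 1.40; edgeR adjusted p = 0.609). It was -1.67 (0.432) without metastasis replicate 4 and -3.91 (0.106) without metastasis replicates 4 and 5.

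Gimap3, which influences the segregation of mitochondrial DNA in mouse leukocytes, was detected unevenly in both groups. It was at 49.7, 10.3, 0.893, 3.19 and 0.705 CPM in metastasis replicates 1 to 5 and at 0.566, 9.08, 0.212, 36.3 and 0.162 CPM in normal lung replicates 1 to 5. Metastasis replicate 1 and normal lung replicate 4 stood far above the rest of their groups. The log2 fold change was 0.48 ± 1.36 (SE; 95% interval -2.33 to 3.30; edgeR adjusted p = 0.848), and without metastasis replicate 1 it was -1.31 (0.593).

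Gimap7, whose human form stimulates GTP hydrolysis in partner GIMAP proteins, did not pass the filter on low counts and was not tested. It had 7, 1129, 0, 6 and 1 counts in metastasis replicates 1 to 5 and 2, 0, 2, 0 and 3 counts in normal lung replicates 1 to 5. Nearly all of its reads came from metastasis replicate 2.

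**Figure D2:**
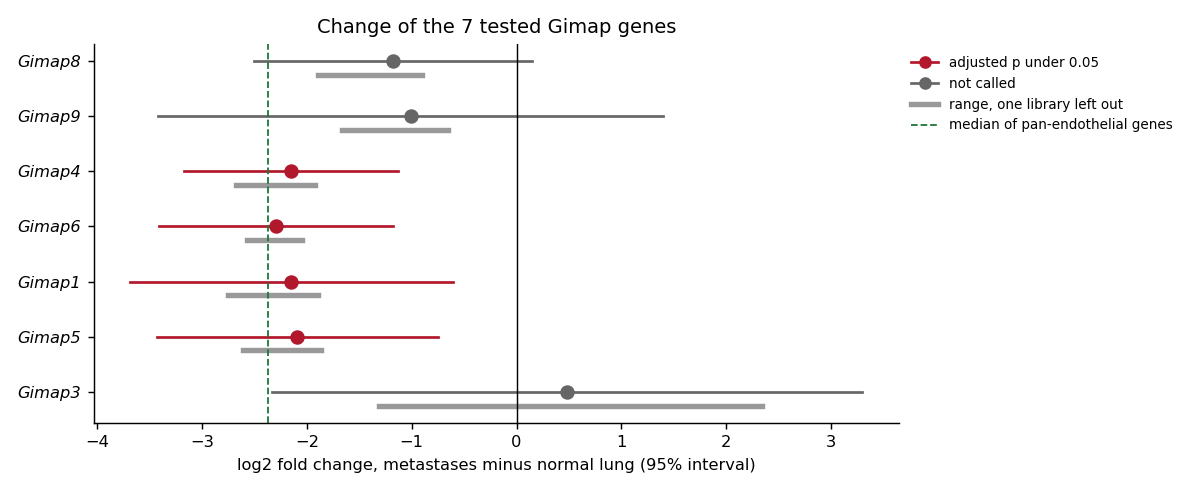
Log2 fold change, metastases minus normal lung, of the 7 tested members in order along the chromosome, with the 95% interval as a thin line, the range over 10 fits that each leave out 1 library as a thick grey line, and the median of the pan-endothelial genes (-2.37) as a dashed line. Gimap4, Gimap6, Gimap1 and Gimap5 lie between -2.30 and -2.09, and with pan-endothelial scaling they lie between 0.06 and 0.71.

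The fall of Gimap4 and Gimap6 ran beside that of general endothelial transcripts, library by library. As a share of its normal lung mean, Gimap4 was at 48.7, 19.3, 28.1, 7.06 and 8.90% in metastasis replicates 1 to 5 and Gimap6 at 33.4, 33.0, 17.5, 13.5 and 4.35%. Pecam1 was at 58.0, 24.3, 35.2, 9.91 and 6.03%, and the median of the pan-endothelial genes at 35.2, 22.2, 22.0, 9.02 and 6.42%. All 4 measures were lower in metastasis replicates 4 and 5 than in replicates 1 to 3. Gimap1 and Gimap5 were ordered otherwise, at 3.60, 10.5, 52.5, 30.7 and 15.6% for Gimap1 and 9.13, 36.7, 49.6, 15.7 and 6.21% for Gimap5.

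**Figure D3:**
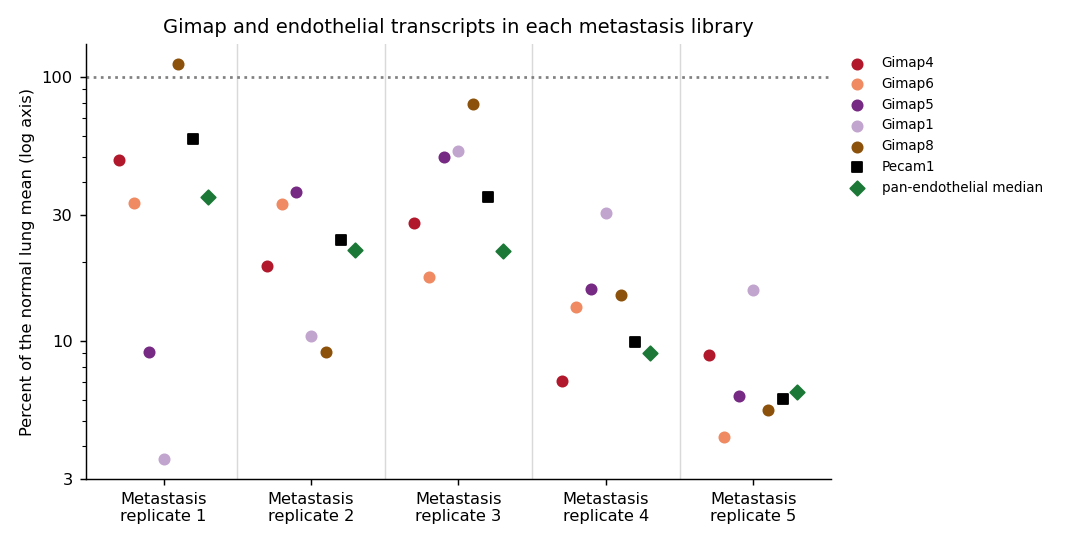
CPM of 5 Gimap genes, Pecam1 and the median of the pan-endothelial genes in each metastasis library, as a percentage of the normal lung mean on a log axis. In replicates 4 and 5 Gimap4 and Gimap6 lie at 13.5% or less, near Pecam1, while Gimap1 lies at 3.60% in replicate 1 and at 52.5% in replicate 3.

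After subtraction of the group means, log2 CPM over the 10 libraries correlated with the mean pan-endothelial profile at a Pearson r of 0.88 for Gimap4 and 0.85 for Gimap6. The same r was 0.57 for Gimap8, 0.44 for Gimap3, 0.25 for Gimap5, -0.43 for Gimap1 and -0.76 for Gimap9. Between members it was 0.75 for Gimap4 with Gimap8, 0.64 for Gimap4 with Gimap6 and -0.92 for Gimap4 with Gimap9. Points of 1 library share its depth and scaling, so these values describe the 10 libraries. They are not set against the r of all tested genes, so they do not mark Gimap4 and Gimap6 out from other genes.

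Set against Pecam1 within each library, which needs no scaling between libraries, no difference of a member's ratio between the groups could be detected. The log2 ratio of Gimap4 to Pecam1 counts was -3.12, -3.20, -3.20, -3.36 and -2.31 in metastasis replicates 1 to 5 and -3.13, -3.32, -2.73, -2.83 and -2.24 in normal lung replicates 1 to 5. The groups overlapped nearly throughout. The difference was -0.19 (95% interval -0.79 to 0.47; two-sided exact permutation p = 0.5, 0.611 adjusted over all tested genes), so a log2 fall of Gimap4 beyond 0.79 relative to Pecam1 lay outside the interval. For Gimap6 the difference was -0.31 (-1.13 to 0.65; exact permutation p = 0.405, adjusted 0.525).

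The intervals of the other members were wider. The difference relative to Pecam1 was -0.18 for Gimap5 (-1.85 to 1.20; exact permutation p = 0.873), -0.31 for Gimap1 (-3.03 to 1.79; p = 0.825), 0.26 for Gimap8 (-1.28 to 1.76; p = 0.683), 0.07 for Gimap9 (-4.18 to 4.58; p = 0.976) and 3.72 for Gimap3 (-0.96 to 7.72; p = 0.0873). Relative to Pecam1 the median of all tested genes was 2.14 higher in metastases, with 41.2% of genes higher and 0.956% lower at an exact p under 0.05. None of the 7 members was among either set with all libraries, and without normal lung replicate 4 the smallest p was 0.0317, that of Gimap3. With Cdh5, which encodes the endothelial cadherin, in place of Pecam1, the differences were -0.07 for Gimap4 and -0.19 for Gimap6, and the median of all genes was 2.26, with 45.2% of genes higher and 0.897% lower.

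**Figure D4:**
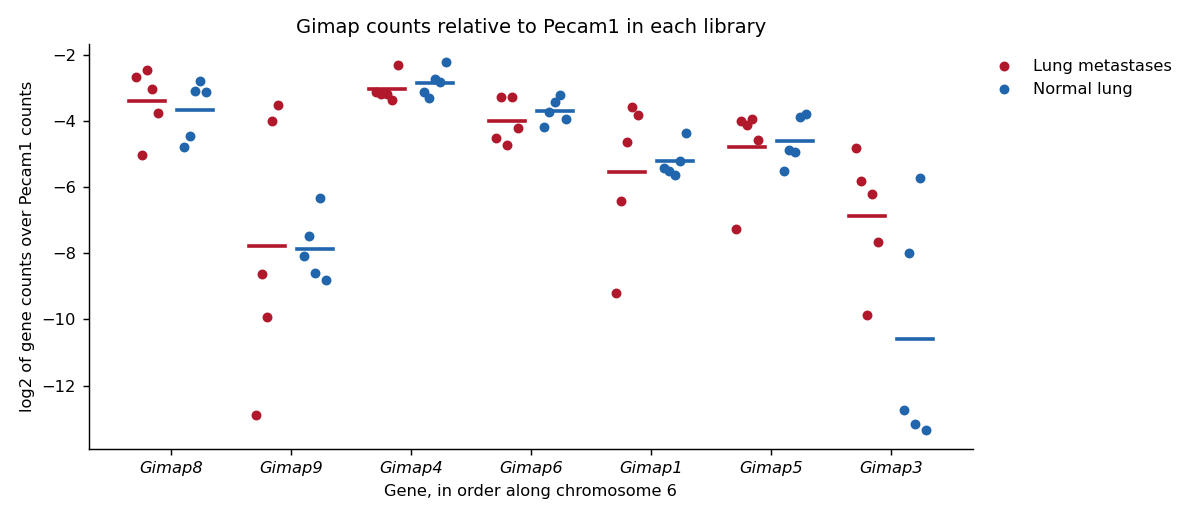
Log2 ratio of each member's counts to Pecam1 counts in each library, with Lung metastases in red to the left of Normal lung in blue and a bar at each group's mean. For Gimap4 the metastases lie between -3.36 and -2.31 and normal lung between -3.32 and -2.24.

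Ratios between members were compared for each of the 21 pairs of tested members. None reached an exact permutation p under 0.05, and the smallest, 0.0714, came from Gimap3 against Gimap5 and against Gimap6. Without normal lung replicate 4, 3 pairs reached it, and with FPKM + 0.1 in place of counts 1 pair did. The log2 ratio of Gimap4 to Gimap6 was 0.98 ± 0.90 in metastases and 0.86 ± 0.55 in normal lung (SD, n = 5 each), a difference of 0.12 (95% interval -1.04 to 1.16; exact permutation p = 0.786). For Gimap1 against Gimap4, whose ratio had an SD of 2.27 in metastases and 0.31 in normal lung, the difference was -0.13 with Gimap1 on top (-2.50 to 1.80; exact permutation p = 0.905).

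Lymphocyte markers were low or uneven in these libraries. The summed CPM of 12 T cell markers was 122, 71.0, 3.67, 22.0 and 15.2 in metastasis replicates 1 to 5 and 29.6, 8.45, 7.91, 44.0 and 7.75 in normal lung replicates 1 to 5. Of these, 9 had a median under 1 CPM in both groups, 3 were tested and 0 were called, and Cd3d, which belongs to the T cell receptor complex, was at 0 in every metastasis library and at 0 to 0.612 CPM in normal lung. Summed NK cell markers (7 genes, 1 tested, 0 called) ranged over 0.844 to 29.2 CPM in metastases and 0.0766 to 10.7 CPM in normal lung. The NK cell sum was 29.2 CPM in metastasis replicate 1 and 6.44 CPM in normal lung replicate 4, the libraries highest for Gimap3 in each group. The 10.7 CPM was in normal lung replicate 2. B cell markers (7 genes, 3 tested, 1 higher, Pax5) ranged over 1.39 to 34.7 CPM in metastases and 1.81 to 12.1 CPM in normal lung. Leukocyte markers shared by all lineages (6 genes, 4 higher, 0 lower) summed to 184 to 600 CPM in metastases and 15.3 to 46.6 CPM in normal lung. Of all tested genes 12.0% were higher and 8.22% lower. The summed T cell markers were lower than Gimap4 alone in every library of both groups apart from metastasis replicate 2.

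Some single T cell markers stood high in libraries where Gimap3 or Gimap7 did, and others did not. Cd28, a costimulatory receptor, was at 93.9 CPM in metastasis replicate 1 and 40.2 CPM in normal lung replicate 4, against at most 1.49 CPM in the other 8 libraries. Cd3e, of the same complex as Cd3d, was at 17.3 CPM and Cd4 at 12.9 CPM in metastasis replicate 2, where Gimap7 was at 17.3 CPM, and Cd3e was also at 13.3 CPM in metastasis replicate 4. Other T cell markers went the other way. Lck was at 0 CPM in metastasis replicates 1 and 2 and normal lung replicate 4, and at 9.91 CPM in metastasis replicate 5. Cd4 was at 0.0338 CPM in metastasis replicate 1 and 0.0522 CPM in normal lung replicate 4, and Zap70 was at 0 CPM in metastasis replicate 2. The part of lymphocytes in the levels of Gimap3 and Gimap7 was not tested.

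The cluster's neighbours moved unevenly. Within 500 kb on each side 52 further genes are annotated, 23 had a row in the count files and 13 were tested. Of these 3 fell and 0 rose, against 8.22% and 12.0% of all tested genes. The median log2 fold change of the tested neighbours was -1.29. Tmem176a, a membrane protein gene on the Gimap3 side of the cluster, was at 22.0, 84.2, 29.5, 32.5 and 31.6 CPM in metastasis replicates 1 to 5 and at 317, 249, 235, 250 and 203 CPM in normal lung replicates 1 to 5. Its groups were far apart, and its log2 fold change was -2.65 ± 0.47 (SE; edgeR adjusted p = 0.000326). Its partner Tmem176b, which overlaps it on the opposite strand and completes the count of 3, was at -1.74 ± 0.52 (0.0194; 0.0531 without metastasis replicate 4). Zfp467, a zinc finger gene on the other side, was at 0.0612 to 0.347 CPM in metastases and 0.189 to 19.8 CPM in normal lung, a log2 fold change of -4.69 ± 1.6 (0.0391). Its highest value came from normal lung replicate 4, without which it was at -3.02 (0.209). Zfp467 also lost its call without any 1 of the 5 metastasis libraries.

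**Figure D5:**
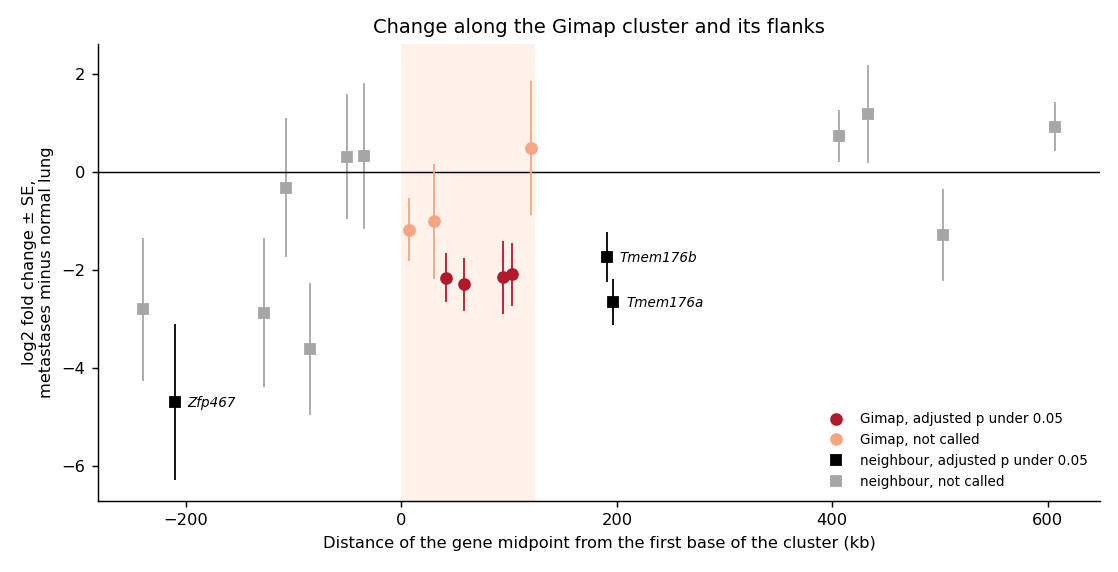
Log2 fold change ± SE, metastases minus normal lung, of the tested Gimap genes (circles, shaded span) and of the 13 tested neighbours (squares) by distance of the gene's midpoint from the first base of the cluster in kb. Called Gimap genes lie between -2.30 and -2.09, called neighbours between -4.69 and -1.74, and other genes of the same span lie on both sides of 0. With pan-endothelial scaling the called Gimap genes lie above 0.

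Other immune-associated GTPases, the interferon-inducible guanylate-binding proteins, immunity-related GTPases and Mx proteins, moved in part with the cluster. Of 20 listed genes 18 were tested, 5 fell and 0 rose, against 8.22% and 12.0% of all tested genes. The median log2 fold change of the list was -0.94. Gbp9 was at 107 ± 79.0 CPM in metastases and 437 ± 91.1 CPM in normal lung (SD, n = 5 each; log2 fold change -2.03 ± 0.47 SE, edgeR adjusted p = 0.00307). Tgtp2 was at 14.3 ± 8.91 CPM in metastases and 67.9 ± 39.6 CPM in normal lung (-2.25 ± 0.72, 0.0274), and lost its call in 5 of 10 fits with 1 library left out, those without metastasis replicate 2, 4 or 5 or normal lung replicate 2 or 3 (largest adjusted p 0.0851). The count was completed by Gbp4 at -1.96 ± 0.52 (0.00866), Irgm2 at -1.82 ± 0.48 (0.00794) and Iigp1 at -1.98 ± 0.56 (0.0141; 0.0672 without normal lung replicate 2), and it was 3 without normal lung replicate 2. Tgtp2 and several Gbp genes have near-identical copies, so their counts are uncertain. With pan-endothelial scaling these 5 were at 0.14 to 0.72, and 0 of the list were lower and 8 higher. That scaling put 60.3% of all tested genes higher and 0.161% lower.

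Genes that work with GIMAP proteins, of the BCL2 family, of the autophagy proteins and of the GSK3 and NFAT signals, showed no call. Of 16 listed 15 were tested, and 0 fell and 0 rose under edgeR, against 8.22% and 12.0% of all tested genes. The list had a median log2 fold change of 0.10 and 1 gene, higher, at an unadjusted edgeR p under 0.05. Of the 11823 tested genes, 2096 were higher and 1623 lower at that limit. DESeq2 called 1 higher and 1 lower, with 18.4% of its genes higher and 12.8% lower. Mcl1, a survival protein, was at 1401 ± 358 CPM in metastases and 1866 ± 783 CPM in normal lung (SD, n = 5 each; log2 fold change -0.41 ± 0.36 SE, edgeR adjusted p = 0.474). Gsk3b, a kinase, was at 432 ± 186 CPM in metastases and 487 ± 163 CPM in normal lung (-0.17 ± 0.38, 0.797). Gabarapl2, the partner of Gimap6, was at 10.7 ± 5.92 CPM in metastases and 12.4 ± 16.1 CPM in normal lung (-0.21 ± 1.01, 0.917).

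The genes whose log2 CPM most resembled the mean standardised profile of the tested members over all 10 libraries were Nsd1 (Pearson r = 0.97), Sema6d (0.97), Egflam (0.97), S1pr1 (0.96) and Klf4 (0.96). Their log2 fold changes lay between -2.99 for S1pr1 and -1.59 for Sema6d. That they were lower follows from matching genes to a profile that was itself lower in metastases. With the group means subtracted the leading genes were Zmym3 (0.96), Ccdc78 (0.93), Ralgapa2 (0.91), Sptlc2 (0.91) and Gfm2 (0.90). These leading genes were others than those over all libraries, and both rankings rest on 10 libraries that share depth and scaling within each.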

How the data were processed

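RNA of CD31+/CD45- lung cells was prepared with the Ovation RNA-Seq System V2 and sequenced as paired 100 bp reads, per the labels' protocols. These planned 60 to 80 M reads for each library. Tools named in the submitters' processing notes are DESeq2 1.6.3, HTSeq 0.6.1, TopHat2 2.0.13 and Cufflinks 2.2.1, with builds GRCm38 and mm10. No source used here gives the gene annotation or the strand setting. The authors deposited HTSeq counts per gene as whole numbers, not normalized. HTSeq summary lines, 71.8 to 85.4% of all reads in metastases and 65.6 to 75.7% in normal lung, were left out. The authors' FPKM values were used for levels between genes and as an alternative test on log2(FPKM + 1) or log2(FPKM + 0.1).

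Counts of 24538 genes were filtered with filterByExpr, which left 11823, scaled by TMM and compared with edgeR 4.0.16 in R 4.3.3 (quasi-likelihood F test, robust, no covariate). Tests were two-sided. P-values were adjusted over every tested gene by Benjamini-Hochberg and called under 0.05. The common biological coefficient of variation was 1.01. Each SE was the size of the log2 fold change divided by √F. Members' ratios (0.5 counts added) were compared by exact permutation over 252 splits, smallest p 0.00794, and their intervals hold the shifts that this test does not reject. The adjustment planned over the members alone was replaced by one over all tested genes. The fit and the permutation test were tested on simulated data.

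Named were all members, from each list the 2 largest called changes each way or, with none called, the 2 most abundant genes, and the 5 most alike genes. Gabarapl2, Tmem176b, Gbp4, Irgm2, Iigp1 and the single lymphocyte markers lie outside that rule and were chosen after their values were seen. Members, lists and alternatives were chosen with earlier results of these data known. Alternatives were DESeq2 1.42.0, limma 3.58.1 on FPKM, other scalings and filters, a stricter threshold (0.01), a replicate block, subsets of libraries and leaving out each library in turn. Positions are from GENCODE M21, which matched 97.3% of the symbols.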

Additional observations from a re-analysis of the deposited data

Results flagged for a closer look

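In 3 cases a value stood apart from its group of 5 libraries, when the gap of the extreme library to its nearest neighbour was divided by the group's range and set against Dixon's 95% limit of 0.71. For normally distributed values chance passes this limit in about 1 of 20 groups. The limit was applied to CPM without a log, whose distribution was not tested, so the rate here is not known. In all, 16 groups (8 members in each group of samples) were examined. Gimap3 was at 49.7 CPM in metastasis replicate 1, with the next library at 10.3 CPM (0.803 of the range). In normal lung Gimap3 was at 36.3 CPM in replicate 4, with the next at 9.08 CPM (0.753 of the range). Gimap7 was at 17.3 CPM in metastasis replicate 2, with the next at 0.237 CPM (0.986 of the range).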

How the results depend on the processing

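The count of 4 lower members was 4 with DESeq2, both other filters on low counts, both FPKM fits and the term for replicates 1 and 2. It was 3 with RLE scaling and library totals, without Gimap1 in both. It was 0 with pan-endothelial scaling and in replicates 1 and 2 alone, 2 in replicates 3 to 5 alone, 2 without metastasis replicates 4 and 5, and 2 at a threshold of 0.01 (Gimap4 and Gimap6), and it ranged from 2 to 4 with 1 library left out. Without the filter on low counts 1 member was higher, Gimap7, at 6.65 (adjusted p = 0.0313), a value that rests on metastasis replicate 2. Of all tested genes 1.6% were lower in replicates 1 and 2 alone, 6.39% in replicates 3 to 5 alone, 4.21% without metastasis replicates 4 and 5 and 3.83% at 0.01, against 8.22% in the full comparison. The normal libraries 1 and 2 are the deepest, and no label calls them a batch.

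With pan-endothelial scaling the log2 fold changes were 0.71 for Gimap1, 0.11 for Gimap4, 0.34 for Gimap5, 0.058 for Gimap6, 0.87 for Gimap8, 2.44 for Gimap9, 0.34 for Gbp4, 0.39 for Gbp9, 0.68 for Irgm2, 0.72 for Iigp1, 0.14 for Tgtp2, 1.09 for Tmem176b, 0.052 for Tmem176a, 2.27 for Mcl1 and 2.40 for Gsk3b. By construction that scaling sets the markers' geometric mean equal between libraries, and with it 99.7% of all called genes were higher, against 59.4% with TMM. Gimap3 turned to -1.05 with the term for replicates 1 and 2, to -2.95 in replicates 3 to 5 alone, and ranged from -1.31 to 2.34 with 1 library left out. Mcl1 turned to 0.27 in replicates 1 and 2 alone and Gsk3b to 0.048 without metastasis replicates 4 and 5. The cause was not tested.

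Relative to Pecam1, leaving out 1 library gave ranges of -0.80 to 0.61 for Gimap1, -0.41 to 0.45 for Gimap5, -0.029 to 0.67 for Gimap8 and -1.0 to 1.34 for Gimap9, and replicates 3 to 5 alone gave 1.05 for Gimap1 and -0.078 for Gimap8. Gimap4 and Gimap6 kept their sign in each of these fits and with Cdh5, FPKM + 0.1 or 2 counts added.

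The other GTPases had 0 lower with pan-endothelial scaling and in replicates 1 and 2 alone, 3 without metastasis replicates 4 and 5, 3 at a threshold of 0.01, and 3 to 6 with 1 library left out. Higher members were 3 with DESeq2, 8 with pan-endothelial scaling, 1 with RLE scaling, library totals, FPKM + 0.1, the replicate block, the term for replicates 1 and 2 or replicates 1 and 2 alone, and 0 to 1 with 1 library left out. Of the GIMAP partners DESeq2 put 1 lower and 1 higher, pan-endothelial scaling 13 higher, replicates 3 to 5 alone 1 higher, and leaving out 1 library 0 to 1 higher. Lower neighbours were 5 with DESeq2, 0 with pan-endothelial scaling and in replicates 1 and 2 alone, 1 in replicates 3 to 5 alone, without metastasis replicates 4 and 5 or at a threshold of 0.01, and 1 to 4 with 1 library left out. Pan-endothelial scaling put 4 neighbours higher. These counts with pan-endothelial scaling stand against 60.3% of all tested genes higher and 0.161% lower. With DESeq2 18.4% of its genes were higher and 12.8% lower. The share higher was 12.5% with RLE scaling, 14.6% with library totals, 12.7% with FPKM + 0.1 and 12.1% with the replicate block. It was 12.8% with the term for replicates 1 and 2 and 3.87% in replicates 1 and 2 alone. In replicates 3 to 5 alone it was 9.29%. With 1 library left out, 10.7 to 11.7% were higher and 6.44 to 9.02% lower.

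The labels number replicates 1 to 5 in both groups without saying that a number marks a shared day. Deviations of same-numbered libraries correlated at 0.000682 to 0.142, and 2 of 5 metastasis libraries matched their own number best. This check on 5 numbers cannot decide whether they pair the samples. The main fit left the numbers out because no label says that they pair samples. With the replicate block 5 members were lower, Gimap8 added at -2.08 (edgeR adjusted p = 0.00581, against 0.216 without the block). With the block 9.98% of all tested genes were lower, against 8.22% without it.

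Counts were few for Gimap7 in all libraries but metastasis replicate 2, and for Gimap9 in some metastasis libraries, with 5 in replicate 1 and 17 in replicate 3. With 2 counts added 0 pairs of members reached an exact p under 0.05. The planned Cdh5 alternative has no meaning for ratios between members, and pair ratios were not run in replicates 3 to 5 alone.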

Other observations

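The levels of 6 tested members varied more between metastasis libraries than between normal lung libraries. Over the 5 metastasis libraries the SD of log2 CPM was 1.15 for Gimap4, 1.20 for Gimap6, 1.27 for Gimap5, 1.48 for Gimap1, 1.93 for Gimap8 and 2.62 for Gimap9. Over the 5 normal lung libraries it was 0.38 for Gimap4, 0.34 for Gimap6, 0.45 for Gimap5, 0.51 for Gimap1, 0.56 for Gimap8 and 1.05 for Gimap9. Over all tested genes the median SD was 1.47 in metastases and 1.14 in normal lung. These 6 members lay below the median gene in normal lung, and Gimap4, Gimap6 and Gimap5 also did in metastases. For Gimap3 the SD was 2.52 in metastases and 3.32 in normal lung.

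The mix of members also shifted between metastasis libraries. Gimap8 made up 43.5, 8.30, 42.4, 22.3 and 13.7% of the counts of the 8 members in metastasis replicates 1 to 5 and 14.2, 16.0, 28.0, 27.9 and 22.1% in normal lung replicates 1 to 5. Gimap4 made up 17.9 to 37.8% in metastases and 27.2 to 45% in normal lung.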
